A study of Canis lupus familiaris with 62 samples.

Results

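ENSCAFG00000012964 on chromosome 38 and ENSCAFG00000002900 on chromosome 1 are 2 of 30951 genes in the deposited count file, selected on their measured counts, for a low fitted level in surgical against untreated canine meningiomas. They are known here by identifier and without a gene name. The choice was made among genes called by edgeR at an adjusted p under 0.05 whose log2 CPM averaged 1 or more and whose group medians lay at least 0.5 apart in the same direction. CPM, the count scaled to library depth, was computed after TMM scaling, and log2 CPM carries a prior count of 2. Of 1025 such lower genes they rank first and second, at fitted log2 differences of -5.50 and -4.84. The third, just outside the choice, stands at -4.77. Both passed the filter on low counts, which 18370 genes passed. Among all of these, before the other conditions, 6 genes had a lower fitted difference than ENSCAFG00000012964 and 26 than ENSCAFG00000002900. Because this difference chose the genes, their levels in surgical against untreated tumours are a description below, with no test.

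Meningiomas arise from the membranes around the brain and spinal cord, and they are the most common primary tumour inside the skull of dogs. In dogs, as in people, surgery and radiotherapy are used against the tumour itself, while steroids and anti-epileptic drugs are given against swelling and seizures. Bulk RNA of such a tumour mixes the tumour cells with vessels, immune cells and any adjoining tissue. A lower level of a gene can therefore mean fewer cells of a type or less RNA per cell, and the data cannot tell these apart.

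All dogs carried a spontaneous meningioma, and each of the 62 libraries comes from 1 tumour archived in paraffin between 2011 and 2022. The treatment labels give 27 untreated dogs, 7 on a steroid (6 of them also on an anti-epileptic drug), 3 on an anti-epileptic drug alone, 3 with radiotherapy alone (RT), 13 with surgery alone (Sx) and 9 with surgery and radiotherapy (SxRT). There were 31 female and 31 male dogs, 55 neutered and 7 intact, of several breeds, and the labels give no ages. Libraries held between 1967061 and 12063982 counts, with a median of 4190135. Tissue came from biopsy at surgery or from necropsy, but the labels do not say which specimen is which, nor whether a treatment came before it. Each sample title starts with a letter, N or S, followed by a number between 11 and 22; neither is explained. All 21 S titles belong to surgical dogs. Sx replicate 1 is the single dog with surgery under an N title, which it shares with the 40 dogs without surgery. Surgery and title letter thus cannot be told apart beyond that dog. Since the file pairs no identifier with a name, the tumours were not checked against markers of cell types.

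ENSCAFG00000012964 lies on the plus strand of chromosome 38 from 21205107 to 21210451 in CanFam3.1. Its 6 exon entries, as used for counting by the authors, cover 2243 bases of a span of 5345. Exon entries are those listed for a gene, and whether some repeat or overlap was not checked. ENSCAFG00000002900 lies on the plus strand of chromosome 1 from 105900832 to 105907726, where 7 exon entries cover 1018 bases of a span of 6895. No other gene of the file overlaps either one. The nearest genes of the file are 4774 bases before and 11802 after ENSCAFG00000012964, and 5899 before and 6734 after ENSCAFG00000002900. Counting was without regard to strand, and antisense reads outside the annotation were not examined.

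ENSCAFG00000012964 was near the limit of counting in most surgical tumours and spanned the widest range in untreated ones. In the 13 Sx tumours it ranged from 0.509 to 238.5 CPM with a median of 1.45, and in the 9 SxRT tumours from 0 to 4.61 with a median of 0.646. In the 27 untreated tumours it ranged from 0.546 to 2915 CPM with a median of 35.1. The groups overlapped, since 6 of 27 untreated tumours lay below 5 CPM, and 5 of the 22 surgical tumours lay below the lowest untreated value. The 7 steroid tumours ranged from 2.77 to 68.2 CPM with a median of 11.99. The 3 anti-epileptic tumours stood at 1.26, 2.73 and 17.1 CPM, and the 3 RT tumours at 16.9, 25.8 and 75.8. None of these 13 tumours came near the upper untreated values. Their joint median was 13.6 CPM, and 2 of the 13 lay above the untreated median.

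The low surgical values rest on very few reads. Sx tumours other than replicates 1, 9 and 12 had between 2 and 14 counts, and SxRT tumours between 0 and 26. SxRT replicates 3 and 7 had 0 counts, which allows up to 0.573 and 0.700 CPM at a floor of 3 counts. Each read of a pair was counted, so that 2 counts mostly stand for 1 fragment, and 19 of the 19 S libraries with a count above 0 had an even count. Intervals from counting alone would be too narrow for that reason.

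The surgical tumours with a high level of ENSCAFG00000012964 were few and stood far from the rest. Sx replicate 9 had 842 counts (238.5 CPM), Sx replicate 12 had 1076 counts (222 CPM) and Sx replicate 1 had 122 counts (22.4 CPM). Replicates 9 and 12 carry S titles and were the 2 of 22 surgical tumours above the untreated median. A level of this gene comparable to untreated tumours thus did occur in libraries with S titles. Their 238.5 CPM was exceeded by 5 of the 27 untreated tumours and by 0 of the 13 on drugs or radiotherapy alone.

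ENSCAFG00000002900 separated surgical tumours from the others more cleanly. In Sx tumours it ranged from 0.565 to 82.4 CPM with a median of 2.66, and in SxRT tumours from 0.423 to 16.3 with a median of 1.29. In untreated tumours it ranged from 0 to 1281 CPM with a median of 103. Most surgical values lay at the bottom of the untreated range, and 0 of 22 exceeded the untreated median. The exception was Sx replicate 1, which lay above 11 of the 27 untreated tumours. Steroid tumours ranged from 2.92 to 324 CPM with a median of 113. The anti-epileptic tumours stood at 14.5, 47.98 and 296 CPM, and the RT tumours at 2.81, 114 and 241. Of these 13 tumours 7 lay above the untreated median, so the treated tumours without surgery were not low in this gene as a group.

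Sx replicate 1, the surgical dog with an N title, had the highest surgical level of ENSCAFG00000002900, at 448 counts (82.4 CPM). Among S titles the highest value was 16.3 CPM in SxRT replicate 5, with 110 counts, followed by 12.5 in Sx replicate 9, with 44 counts. The other 19 of 21 S libraries lay below 5 CPM, against 6 of 41 N libraries. Above the highest S value were 30 of the 41 N libraries, among them 20 of 27 untreated ones and 9 of the 13 on drugs or radiotherapy alone. For ENSCAFG00000012964 the same bound of 5 CPM held 19 of 21 S and 10 of 41 N libraries. Counts of ENSCAFG00000002900 in S libraries had a median of 10 and were even in 20 of 21.

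**Figure D1:**
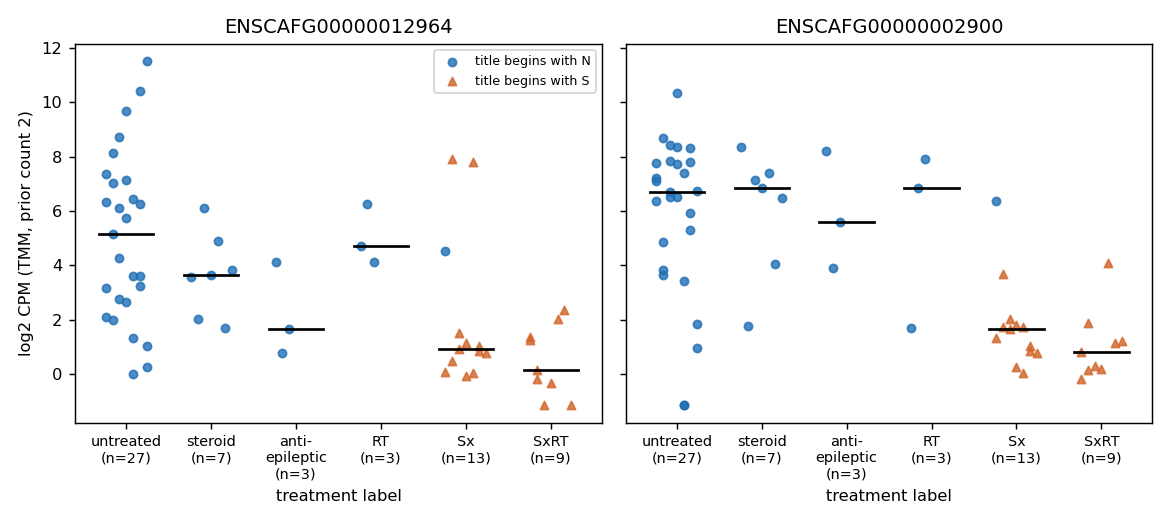
Level of each gene (log2 CPM, y axis) in every tumour by treatment label (x axis), with circles for N titles, triangles for S titles and a bar at the group median. The S triangles gather at the bottom in both panels, with 2 Sx triangles near 8 for ENSCAFG00000012964 and the single surgical circle, Sx replicate 1, near 6 for ENSCAFG00000002900.

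The order of the group medians differed between the genes at the top and was the same at the bottom. For ENSCAFG00000012964 the median log2 CPM fell from 5.15 in untreated through 4.71 in RT, 3.64 in steroid, 1.67 in anti-epileptic and 0.92 in Sx to 0.13 in SxRT tumours. All neighbouring groups overlapped, and no difference of neighbouring means exceeded the larger of the 2 SDs. For ENSCAFG00000002900 the medians were 6.84 in RT, 6.83 in steroid, 6.70 in untreated, 5.598 in anti-epileptic, 1.63 in Sx and 0.80 in SxRT tumours. The step from anti-epileptic to Sx, 4.11 between means, was larger than the larger SD of 2.17. The ranges overlapped there through Sx replicate 1 alone. The other neighbouring groups did not differ beyond their spread.

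In the fit of all 62 libraries the surgical difference was -5.50 (SE 0.992) for ENSCAFG00000012964 and -4.84 (SE 0.757) for ENSCAFG00000002900 on the log2 scale. Of the 18370 genes tested 10.4% were called lower and 6.37% higher (edgeR, adjusted p under 0.05), and since this contrast chose the genes nothing is read from their calls. That balance depends on the fit: limma voom called 1386 genes lower and 1604 higher, edgeR with the even share as a covariate 474 and 260, and with the first principal component 132 and 151. The size of the difference changed with measures of the library. With the share of even counts among low counts as a covariate, ENSCAFG00000012964 stood at -3.56 and ENSCAFG00000002900 at -4.16. With the score on the first principal component as a covariate they stood at -4.61 and -2.76, in that order. That component is the main axis of variation over genes averaging a log2 CPM of 2 or more, computed without both genes and with an arbitrary sign. Its median was 3.29 in untreated, -51.2 in surgical and 67.2 in the other tumours, with Sx replicate 1 at 36.7. The even share had medians of 91.4%, 86.6% and 88.5% in the same groups, and the mitochondrial share 12.8%, 9.57% and 15.5%. The part of these library measures in the low levels was not tested.

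Low surgical levels were found among early and late title numbers. Untreated titles end at 18, so from 19 on there is no untreated tumour to compare with. Among titles numbered 11 to 16, the 9 surgical tumours had between 0.509 and 2.11 CPM of ENSCAFG00000012964 (median 0.949), and the 18 untreated tumours had a median of 27.0. Surgical values of ENSCAFG00000002900 lay there between 0.423 and 3.23 CPM (median 2.07), with an untreated median of 97.6. In these earlier numbers no surgical tumour reached 5 CPM of either gene. Among titles numbered 17 to 22, the surgical medians over 13 tumours were 1.94 and 1.77 CPM, and the untreated medians over 9 tumours were 67.9 and 136. The numbers are not matched within this range, since all 9 untreated tumours carry 17 or 18 and 9 of the 13 surgical ones 19 to 22. The surgical tumours with a high level of either gene, Sx replicates 1, 9 and 12 and SxRT replicate 5, were all in these later numbers. For ENSCAFG00000012964 the fitted difference was -7.75 (SE 1.94) in the earlier and -3.99 (SE 1.55) in the later numbers. For ENSCAFG00000002900 it was -6.60 (SE 1.65) and -3.86 (SE 0.875). In the earlier numbers edgeR called 0 of 18153 genes lower and 0 higher, and in the later 34 and 37 of 19503. Whether the fitted differences depend on the number range was not tested.

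**Figure D2:**
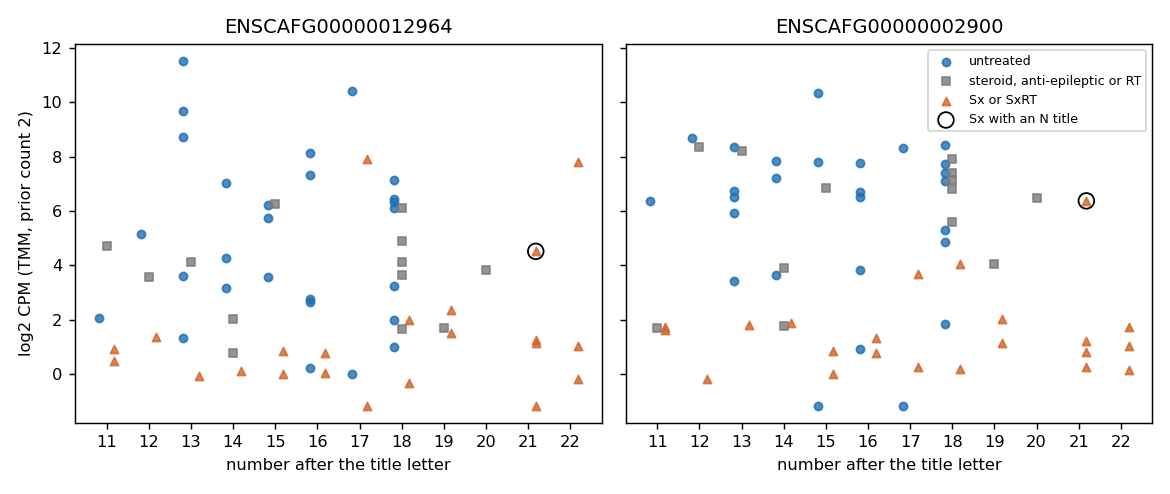
Level of each gene (log2 CPM, y axis) against the number after the title letter (x axis, points shifted sideways by treatment class to limit overlap). Surgical triangles stay near the bottom at all numbers, and the exceptions lie at 17 or above. The ringed triangle is Sx replicate 1.

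The contrast of SxRT against Sx did not itself choose the genes, but the values of both groups entered the contrast that did. The p-values given here are thus not fully independent of the choice. ENSCAFG00000012964 passed the filter on low counts only with other groups included, and not within Sx and SxRT libraries alone. ENSCAFG00000012964 was lower in SxRT than in Sx by a fitted log2 difference of -4.17 (SE 1.38, 9 against 13 tumours), which edgeR did not call (adjusted p 0.483). DESeq2 did call it, at -4.31 (DESeq2 adjusted p 0.0232), while limma voom gave -1.89 (SE 2.01) and edgeR with the even share as a covariate -2.30 (SE 1.36). That call rests on Sx replicates 9 and 12. Without both, DESeq2 gave -1.46 (adjusted p 1.0) and edgeR -1.30 (SE 1.25, adjusted p 1.0). The 7 SxRT libraries with any count had between 2 and 26 counts, so a further reduction below most Sx tumours was hardly measurable at this depth. ENSCAFG00000002900 differed by -1.46 (SE 1.01, edgeR adjusted p 1.0), and by -0.07 without Sx replicate 1. By edgeR 0.0109% of genes were called in this comparison, 2 of 18370.

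Sex and neuter status gave no call for either gene. ENSCAFG00000012964 was fitted 1.77 higher in female than in male dogs (SE 0.720, edgeR adjusted p 0.489), on a background of 0.049% of genes called. Its untreated median was 71.4 CPM in 14 female and 18.999 in 13 male dogs, with ranges that overlapped almost wholly. ENSCAFG00000002900 differed by -0.29 (SE 0.600, edgeR adjusted p 0.960), with untreated medians of 121 CPM in female and 91.9 in male dogs. Without Sx replicate 1 that difference turned to 0.25. The surgical difference was fitted 3.17 less negative in female than in male dogs for ENSCAFG00000012964 (SE 1.72, edgeR adjusted p 1.0) and 0.23 for ENSCAFG00000002900 (SE 1.30, adjusted p 1.0). With limma voom the first of these was 0.04 (SE 2.57). That comparison called 0 of 15440 genes (0.0%), with 566 at an unadjusted p under 0.05.

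Intact and neutered dogs differed by 0.25 for ENSCAFG00000012964 (SE 1.19, edgeR adjusted p 0.984) and by -1.50 for ENSCAFG00000002900 (SE 1.01, edgeR adjusted p 0.761), where 0.0435% of genes were called. Without Sx replicate 1 the second difference was -0.54. The 3 untreated intact dogs had 3.49, 3.78 and 131 CPM of the first gene and 11.9, 28.7 and 81.5 of the second. All 6 values lay inside the range of the 24 untreated neutered dogs. Breeds with at least 3 untreated dogs were the Boxer (4), the Labrador Retriever, the Miniature Schnauzer and the Shetland Sheepdog (3 each). Their median levels of ENSCAFG00000012964 were 115, 86.3, 3.49 and 11.8 CPM in that order, and of ENSCAFG00000002900 273, 168, 28.7 and 91.9 CPM. Within each of these breeds the highest level of ENSCAFG00000012964 was over 10 times the lowest. ENSCAFG00000002900 varied less within 2 of them, from 136 to 321 CPM in Labrador Retrievers and from 60.2 to 148 in Shetland Sheepdogs. Breeds were not tested.

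Within the surgical dogs no relation of either gene to the survival label, whose unit is not given, was detected. Of the 22 dogs 8 had a recorded end and 14 were lost to follow-up. The Cox score, the sum over recorded ends of a dog's log2 CPM minus the mean of the dogs still followed, was 8.04 for ENSCAFG00000012964 (permutation p 0.221, adjusted 0.442) and 1.20 for ENSCAFG00000002900 (permutation p 0.783, adjusted 0.783). With 8 ends a modest relation would not be detectable.

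Untreated tumours differed among themselves over most of the range of the study for both genes. The SD of log2 CPM over the 27 tumours was 3.13 for ENSCAFG00000012964 and 2.94 for ENSCAFG00000002900, where the median SD over 13794 genes averaging a log2 CPM of 1 or more was 0.830. A larger SD was found in 0.00725% of these genes for the first gene and in 0.0507% for the second. These 27 libraries also entered the contrast that chose the genes for a large difference, so the ranks by SD are a description. Counts of ENSCAFG00000012964 ran from 2, in replicates 14 and 19, to 10776 in replicate 7. Counts of ENSCAFG00000002900 ran from 0, in replicates 12 and 19, to 5028 in replicate 11. A count of 0 allows up to 0.579 and 0.820 CPM in those 2 libraries.

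The values of ENSCAFG00000012964 in untreated tumours showed no clear break into groups, though 27 tumours are too few to tell 1 broad group from 2 overlapping ones. The widest gap between sorted values was 1.09 on the log2 scale, at the top, between 1372 CPM and the single tumour at 2915. Of all genes compared 34.6% had a wider gap. A mixture of 2 Gaussian components had a lower BIC than 1 component, by 4.72 in mclust's form, where higher is better. The 2 components would be centred at 2.72 and 7.63 with a common SD of 1.85 and hold 14 and 13 tumours.

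For ENSCAFG00000002900 a few low tumours stood below a broad upper group. The widest gap, 2.09 on the log2 scale, lay between the 2 tumours at 0 and the next at 1.46 CPM, and 7.68% of genes had a wider gap. A mixture of 2 Gaussian components had a BIC higher by 2.68 than 1. They were centred at 0.65 and 6.91 (SD 1.65) and held 4 and 23 tumours. The 4 low ones are replicates 12, 14, 19 and 21, at 0, 1.46, 0 and 3.14 CPM, levels seen in most surgical tumours. A preference for 2 components is common in these data, since 29.8% of genes had one and 18.3% had a larger difference than this gene. With a prior count of 0.5 the widest gap was 3.82, because log values of a count of 0 depend on it.

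**Figure D3:**
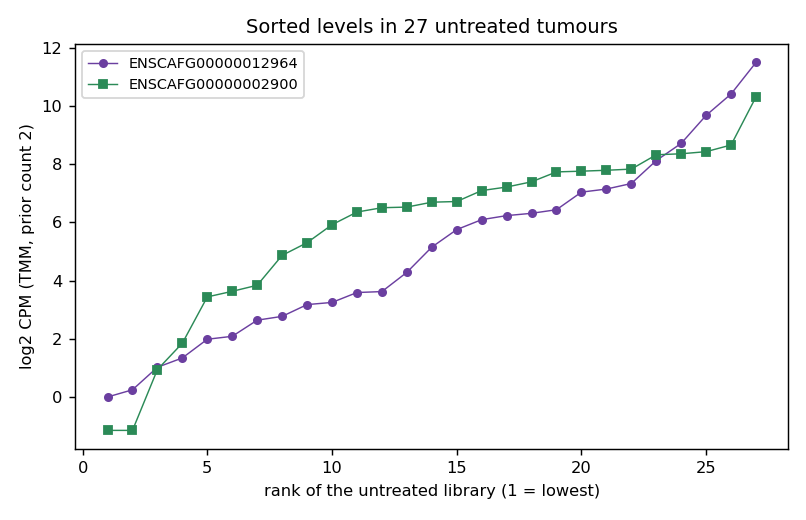
Sorted levels (log2 CPM, y axis) of both genes in the 27 untreated tumours by rank (x axis, each gene ranked on its own). The line of ENSCAFG00000012964 climbs without a step up to 11.5. The line of ENSCAFG00000002900 starts with 2 tumours at a count of 0, climbs steeply over the next and flattens between ranks 11 and 26.

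Per kilobase of exon, ENSCAFG00000002900 was the more abundant of the pair. Its untreated median was 101 CPM per kilobase, against 15.6 for ENSCAFG00000012964. Over all 62 tumours the medians were 15.9 and 3.33 CPM per kilobase. In plain CPM it was the higher of both in 19 of 27 untreated and 42 of 62 tumours. The order was reversed in the tumours with the largest amounts of ENSCAFG00000012964, such as untreated replicate 7, with 2915 CPM of it and 105 of ENSCAFG00000002900.

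Of the library measures compared with the levels inside the untreated group, the first component alone passed adjustment over 10 relations, and only for ENSCAFG00000002900. Its log2 CPM rose with the component at r = 0.73 (permutation p 1e-05, the smallest that 100000 resamples can give, adjusted 0.0001, n = 27), with Spearman's rho 0.835 (permutation p 1e-05, adjusted 0.0001). Without the 2 tumours farthest from the median of the component r was 0.72. For ENSCAFG00000012964 the same relation had r = 0.30 (permutation p 0.130, adjusted 0.259) and rho 0.360 (permutation p 0.0660, adjusted 0.305). The component was added to the planned measures after the data had been seen. It is computed from other genes of the same libraries, and many genes vary with ENSCAFG00000002900. The share of all genes with an r of this size is not given here, so the p-value does not set this gene apart from others. Whether the 2 genes differ in this relation was not tested.

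The other measures showed no relation past adjustment. ENSCAFG00000002900 had r = -0.41 with total counts (permutation p 0.0358, adjusted 0.153, rho -0.25), which was -0.05 without the 2 farthest tumours, and r = 0.39 with the even share (permutation p 0.0460, adjusted 0.153, rho 0.33). With the title number r was -0.11 for ENSCAFG00000012964 (permutation p 0.575, adjusted 0.575, rho -0.11) and -0.13 for ENSCAFG00000002900 (permutation p 0.504, adjusted 0.560, rho -0.09). The 4 untreated tumours below 5 CPM of ENSCAFG00000002900 carry 15, 16, 17 and 18, and 0 of the 10 numbered 11 to 14 were that low. For ENSCAFG00000012964 they were 4 of 17 at 15 to 18 and 2 of 10 at 11 to 14.

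The genes varied together among untreated tumours. This relation did not itself choose them, but the values of these 27 libraries entered the contrast that did. The p-values are thus not fully independent of the choice, and the share of all gene pairs with as high an r is not given here. Over 27 tumours r was 0.55 (permutation p 0.0024, adjusted 0.0048 over 2 relations) and rho 0.55 (permutation p 0.00336). Without the 2 tumours farthest from the median of ENSCAFG00000012964 r was 0.57. Both genes were below 5 CPM in 3 untreated tumours, replicates 14, 19 and 21, ENSCAFG00000012964 alone in 3 and ENSCAFG00000002900 alone in 1. The single one, replicate 12, had 0 counts of ENSCAFG00000002900 and 60 (11.6 CPM) of ENSCAFG00000012964. High levels of one gene occurred with high and with low levels of the other. Replicates 20 and 4, next to the highest in ENSCAFG00000012964 at 1372 and 824 CPM, had 321 and 329 CPM of ENSCAFG00000002900. Replicate 11, with the highest ENSCAFG00000002900 at 1281 CPM, had 53.5 CPM of ENSCAFG00000012964, and replicates 9 and 16 had 131 and 279.6 CPM of ENSCAFG00000012964 with 11.9 and 13.8 of ENSCAFG00000002900.

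Among surgical tumours the same relation rested on a few libraries. The surgical values entered the contrast that chose the genes as well, so these p-values carry the same limit. Over 22 tumours r was 0.56 (permutation p 0.0144, adjusted 0.0144) and rho 0.46 (permutation p 0.0342). Without Sx replicates 1, 9 and 12 r was 0.35 (permutation p 0.147) and rho 0.23 (permutation p 0.339). Without replicate 1 alone rho was 0.39 (permutation p 0.0855). Without the 2 tumours farthest from the median of ENSCAFG00000012964, replicates 9 and 12, r was 0.69 (permutation p 0.00339) and rho 0.34 (permutation p 0.141). At a few counts per library, a relation among the low surgical tumours was not detectable. Of the 21 S libraries 18 were below 5 CPM in both genes. The 3 others differ in kind: Sx replicate 12 was high in ENSCAFG00000012964 alone (222 against 2.89 CPM), SxRT replicate 5 reached 16.3 CPM of ENSCAFG00000002900 with 3.56 of ENSCAFG00000012964, and Sx replicate 9 had 238.5 and 12.5 CPM.

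**Figure D4:**
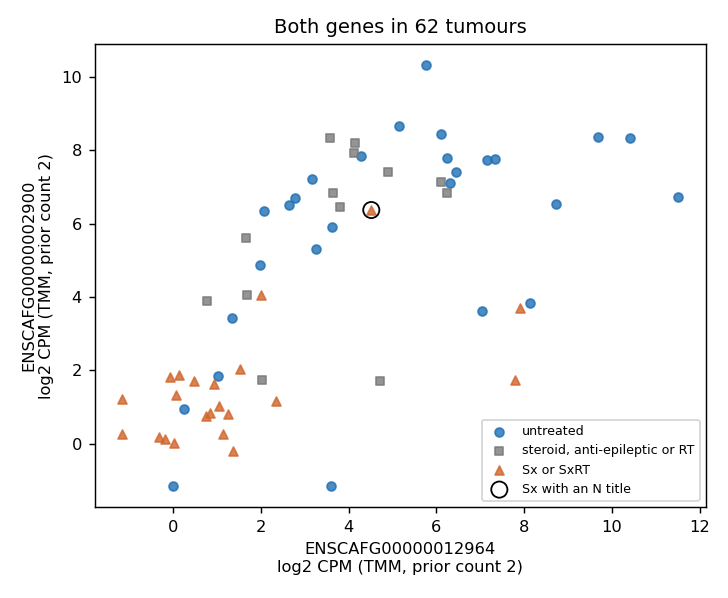
Level of ENSCAFG00000002900 (log2 CPM, y axis) against ENSCAFG00000012964 (log2 CPM, x axis) in all 62 tumours, by treatment class. Surgical triangles crowd at the lower left, with 2 near 8 on the x axis, and 3 of the 27 untreated circles lie among or next to them. The ringed triangle is Sx replicate 1.

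Genes that vary like each of the 2 were ranked by Pearson's r of the deviations of log2 CPM from the treatment group means, over 62 libraries and 13792 genes averaging a log2 CPM of 1 or more. These r are a description, since all genes of a library share its depth and composition. ENSCAFG00000012964 and ENSCAFG00000002900 had r = 0.54 with each other. Only 0.145% of the ranked genes had a higher r with ENSCAFG00000012964 than its partner did, but 5.597% had a higher r with ENSCAFG00000002900. At this depth the first gene thus had few genes that followed it, and the second had many. Their counts differed too, and low counts can weaken r. In N libraries the median count was 70 for ENSCAFG00000012964 and 390 for ENSCAFG00000002900, and in S libraries 6 and 10. The part of depth in the different numbers of followers was not tested.

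For ENSCAFG00000012964 the highest r were 0.71, with ENSCAFG00000000052 on chromosome 1 from 11074305 to 11165626, and 0.66, with ENSCAFG00000011648 on chromosome 36 from 11482899 to 11561845. ENSCAFG00000000052 had a median of 6.65 CPM in untreated (0 to 232) and 0.339 in surgical tumours (0 to 7.37). ENSCAFG00000011648 had a median of 62.7 CPM in untreated (0.732 to 418) and 3.63 in surgical tumours (0 to 39.4). Both were thus low in surgical tumours as well, with fitted log2 differences of -4.41 and -3.22. The lowest r were -0.62, with ENSCAFG00000016004 on chromosome 9 from 21823976 to 21829550, and -0.61, with ENSCAFG00000004333 on chromosome 20 from 2945720 to 2972245. Their medians hardly differed between untreated and surgical tumours, at 6.62 and 6.91 CPM for the first and 22.3 and 25.8 for the second. Among untreated tumours alone the 4 correlations were 0.74, 0.82, -0.51 and -0.66.

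For ENSCAFG00000002900 the highest r was 0.92, with ENSCAFG00000001757, a gene of 2 exon entries on chromosome 14 from 11114415 to 11132395. Next came ENSCAFG00000013973 at 0.89, with 38 exon entries, not necessarily distinct exons, on chromosome 9 from 18569892 to 18579461. ENSCAFG00000001757 had a median of 16.7 CPM in untreated (0 to 133) and 0.521 in surgical tumours (0 to 8.09). ENSCAFG00000013973 was abundant in untreated tumours, with a median of 823 CPM (6.56 to 3650) against 26.3 in surgical ones (6.94 to 2066). Both followed ENSCAFG00000002900 with the untreated tumours left out too, at 0.87 and 0.84, and with the first component removed, at 0.79 and 0.77. The lowest r were -0.62, with ENSCAFG00000029011 on chromosome 12 from 66297248 to 66310186, and -0.60, with ENSCAFG00000045764 on chromosome 11 from 64569331 to 64570504. With the first component removed these were -0.07 and -0.16. Medians in untreated and surgical tumours were 154.7 and 162 CPM for ENSCAFG00000029011 and 3.49 and 5.07 for ENSCAFG00000045764.

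Many followers of both genes were low in surgical tumours. Group means had been removed before ranking, which leaves variation shared by many genes, such as the first component. Following a gene and being low in surgical tumours are thus not shown to be independent. At r of at least 0.5 there were 39 genes (0.283%) for ENSCAFG00000012964 and 918 (6.66%) for ENSCAFG00000002900. Of these, 22 of 39 and 667 of 918 were called lower in surgical tumours (edgeR) and 0 were called higher in either list, with median log2 differences of -1.23 and -1.82. Among all ranked genes 9.56% were called lower and 7.67% higher, and the median was 0.02. At r of at most -0.5 there were 18 and 138 genes, of which 2 and 27 were called higher and 0 lower.

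The 100 highest r ran down to 0.45 for ENSCAFG00000012964 and 0.76 for ENSCAFG00000002900. Of these genes 59 and 100 were called lower in surgical tumours, and 12 genes were in both lists. They were spread over 35 and 34 chromosomes. On chromosome 38 lay 2 of the first 100, where 0.993% of ranked genes lie, and on chromosome 1 lay 9 of the second 100, where 5.75% lie. How many of the 100 remained depended on the libraries used. With untreated tumours left out 35 and 53 remained, and with the first component removed 52 and 59. Within treatment groups that component had r = 0.34 with ENSCAFG00000012964 and 0.76 with ENSCAFG00000002900.

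**Figure D5:**
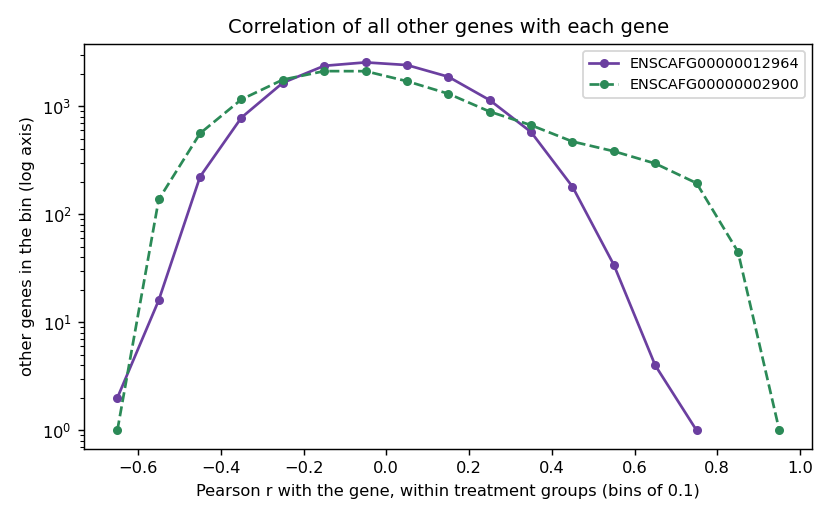
Number of other genes (y axis, log scale) by their Pearson r with each gene within treatment groups (x axis, bins of 0.1, points at bin centres). The dashed line of ENSCAFG00000002900 has a long right shoulder, with 918 genes at 0.5 or more, while the line of ENSCAFG00000012964 ends near 0.7 with 39.

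Most genes near each of the 2 on the chromosome were not called lower in surgical tumours. Within 1 Mb of ENSCAFG00000012964 lie 62 other genes, of which 50 passed the filter. Of these 7 were called lower (14.0%) and 2 higher in surgical tumours, with a median log2 difference of -0.19, and 0 had r of at least 0.5 with it (highest 0.45). Within 1 Mb of ENSCAFG00000002900 lie 103 genes, of which 66 passed. Of these 9 were called lower (13.6%) and 4 higher, with a median of 0.15 and a lowest log2 difference of -5.52, beyond that of ENSCAFG00000002900 itself. There 6 genes (9.09%) had r of at least 0.5 (highest 0.74), where 6.18% of all genes tested did, and all 6 were called lower. These shares stand beside a background of 10.4% called lower.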

How the data were processed

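Total RNA of 62 tumours was sequenced as 150 nt Illumina pairs. Per the file headers, the authors made the deposited counts on CanFam3.1 and Ensembl release 100 exons by featureCounts 2.0.4, without strand and counting each read of a pair. STAR and DESeq2 are named without a version, per the submitters' processing notes. Of the 30951 identifiers 0 matched the RefSeq name table (assembly UU_Cfam_GSD_1.0), so gene names, pathway lists and cell type markers were not used.

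Groups follow the treatment label. Sx was read as surgery, RT as radiotherapy. Replicates are numbered in accession order. Counts were filtered by treatment group with filterByExpr, scaled by TMM and fitted with edgeR 4.0.16 quasi-likelihood models (R 4.3.3) over all 62 libraries, with treatment group, sex and neuter status, and Benjamini-Hochberg adjustment over all genes. The interaction of surgery and sex used untreated and surgical libraries. Alternatives were limma 3.58.1, as voom with sample quality weights, and DESeq2 1.42.0, and mclust 6.1.1 gave the mixtures. Even share is the share of even values among counts from 1 to 20. Relations used 2-sided permutation with 100000 resamples. Named genes are the 2 members and, for each, the 2 highest and 2 lowest within-group r. Members, lists and rules were chosen with earlier results of these data known. Where the labels give separate tumours, p-values measure the spread between dogs. The edgeR script was tested on simulated data.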

Additional observations from a re-analysis of the deposited data

Results flagged for a closer look

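ENSCAFG00000002900 in SxRT replicate 5, at log2 CPM 4.07 (110 counts), stood apart from the other 8 SxRT tumours, which had at most 10 counts. Its distance to the next highest was 0.512 of the range of the 9 tumours, above Dixon's critical value of 0.493. Only the SxRT and steroid groups, of 4 to 10 tumours, were examined this way for both genes, and chance flags about 1 in 20 groups.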

How the results depend on the processing

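Over 12 alternative fits the surgical difference kept its sign, from -7.75 to -3.56 for ENSCAFG00000012964 and from -6.60 to -2.76 for ENSCAFG00000002900. Since this contrast chose the genes on the same libraries, the kept sign is a description and no support for the difference. For SxRT against Sx, DESeq2 on all libraries called ENSCAFG00000012964 at -4.31, and no other fit did. In edgeR, leaving out 1 tumour gave -4.43 to -2.91 for it and -2.56 to -0.07 for ENSCAFG00000002900. Without both Sx replicates 9 and 12, ENSCAFG00000012964 stood at -1.46 in DESeq2 and -1.30 in edgeR, with no call. Restricted to Sx and SxRT libraries ENSCAFG00000012964 did not pass the filter and has no value. With limma voom ENSCAFG00000002900 turned to 0.89 in female against male dogs and -0.17 in the interaction, and ENSCAFG00000012964 to -0.43 in intact against neutered dogs; without Sx replicate 1 the first was 0.25. None of these 3 differences was called in any fit run. Without the 2 farthest untreated tumours r became 0.0155 for ENSCAFG00000012964 with total counts and 0.0308 for ENSCAFG00000002900 with the mitochondrial share. The relation of both genes in surgical tumours fell to r = 0.35 without Sx replicates 1, 9 and 12. Apart from the constructions named here, the cause of these changes was not tested. Leave-outs of Sx replicates other than 1, the first component in relations and the joint leave-outs were chosen after seeing the data. Depth limits statements on levels under about 3 counts. No paired analysis was possible because replicate numbers are accession order only.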
